A study of Mus musculus with 8 samples.

Results

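Prm1, Lrrc15, Agbl1, Scn11a, Il6ra and B4galnt2 are 6 mouse genes that stood among those with a large rise when cultured pre-B cells lost IL-7, and that are not classic B cell genes. They were chosen by name from the withdrawal values described here, so those values are a description and carry no test. No numeric threshold was set: the rises in control cells ranked 2, 4, 6, 11, 16 and 159 from the top of 21320 genes. Each of the 6 is measured by a single 60-base probe, and all 6 probes were well above background on at least 2 of the 8 arrays, so all 6 were kept. Only Prm1 passed this filter through groups with IL-7 as well: the other 5 passed only through groups without IL-7, where they are high.

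The cells are wk3, a mouse pre-B cell line of genotype SLP-65-/-, and this genotype is common to every sample. They carried a retroviral vector, selected with puromycin, encoding either a scrambled sponge as the control or a miR-15 sponge that binds the miR-15 microRNA family. Each kind of cell was grown in excess IL-7, taken as supernatant of IL-7-expressing J558L cells, or kept for 36 hours without IL-7, which gives 4 groups of 2 one-colour arrays. The 2 arrays of a group come from independent experiments with separately made clones, so the comparisons rest on 2 clones of 1 cell line.

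IL-7 is the growth factor of early B cells in the bone marrow. While it signals through JAK and STAT proteins, pre-B cells divide, and when it is lost they leave the cycle and begin to rearrange their light chain genes. SLP-65, also called BLNK, is an adaptor that carries the pre-B cell receptor's signal. A sponge is a transcript with many microRNA binding sites, which holds the microRNAs away from their own targets. The other genes have textbook roles elsewhere. Il6ra encodes the ligand-binding receptor of interleukin 6. Scn11a encodes NaV1.9, a voltage-gated sodium channel of pain-sensing neurons. Lrrc15 encodes a membrane protein with leucine-rich repeats that is known from activated fibroblasts. B4galnt2 encodes the glycosyltransferase that completes the Sd(a) carbohydrate antigen. Agbl1 encodes a carboxypeptidase that trims glutamates from tubulin and other proteins. Prm1 encodes protamine 1, which replaces histones in the sperm head.

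The miR-15 family is shown because the sponge was built against it. The labels name 6 family members, and the mature RefSeq sequences of all 6 share the seed, bases 2 to 8, in capitals.
mmu-miR-15a-5p: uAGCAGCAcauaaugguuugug
mmu-miR-15b-5p: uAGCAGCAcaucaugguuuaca
mmu-miR-16-5p: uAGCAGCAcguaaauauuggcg
mmu-miR-195a-5p: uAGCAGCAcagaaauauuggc
mmu-miR-322-5p: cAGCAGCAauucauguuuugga
mmu-miR-497a-5p: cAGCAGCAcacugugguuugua

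The 6 promoters differ widely in CG content. All 6 genes were found among 32851 RefSeq promoter windows of 27025 genes on build GRCm38.p6, each running from 250 bases before to 50 bases after the start of the gene. The Prm1 window holds 1 CG pair, and 5.43% of all windows hold fewer. The windows of Scn11a and Agbl1 hold 3 and 4 CG pairs, against a median of 7 over all windows. The windows of Lrrc15, B4galnt2 and Il6ra hold 16, 21 and 25 CG pairs, and 81.6% of all windows hold fewer than that of Il6ra. Prm1, Agbl1 and Il6ra are printed to show this range, 5′ to 3′ on the strand of the gene, with each CG pair in capitals. The Prm1 window is chr16:10796774-10797073 on the minus strand, that of Agbl1 is chr7:76229637-76229936 on the plus strand and that of Il6ra is chr3:89913147-89913446 on the minus strand.
Prm1: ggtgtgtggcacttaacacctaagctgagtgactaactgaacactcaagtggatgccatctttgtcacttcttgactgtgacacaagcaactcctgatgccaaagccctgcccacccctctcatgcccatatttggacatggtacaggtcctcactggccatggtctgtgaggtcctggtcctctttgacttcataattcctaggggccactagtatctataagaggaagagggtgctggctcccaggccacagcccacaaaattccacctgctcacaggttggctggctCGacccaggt
Agbl1: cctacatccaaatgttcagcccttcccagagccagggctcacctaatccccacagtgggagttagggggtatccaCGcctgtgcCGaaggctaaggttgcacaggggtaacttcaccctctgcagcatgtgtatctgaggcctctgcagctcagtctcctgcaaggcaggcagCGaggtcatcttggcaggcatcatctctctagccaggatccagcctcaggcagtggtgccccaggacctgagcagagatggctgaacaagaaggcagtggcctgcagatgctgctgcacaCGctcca
Il6ra: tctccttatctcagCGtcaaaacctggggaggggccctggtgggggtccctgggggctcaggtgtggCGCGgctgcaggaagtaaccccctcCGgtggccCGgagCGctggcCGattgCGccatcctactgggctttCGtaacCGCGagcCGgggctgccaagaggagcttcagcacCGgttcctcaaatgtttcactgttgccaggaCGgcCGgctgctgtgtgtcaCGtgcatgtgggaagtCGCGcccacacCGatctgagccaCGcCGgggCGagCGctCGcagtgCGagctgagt

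The windows were searched on both strands for 8 motifs of factors known from B cells or from germ cells. TATAAA, the TATA box, lies in 13.6% of all windows and in none of the 6. TGTTTAC of FOXO factors lies in 3.65%, TTCNNNGAA of STAT factors in 8.3% and the ETS-IRF composite site in 2.72%, and none of these is in the 6 windows. The EBF1 site lies in 0.904%, TGACGTCA of CREB and CREM in 1.79% and the NF-kappaB site in 0.411%, again with no match in the 6. CAGCTG, the E-box of E2A, lies in 16.3% of all windows and in 1 of the 6, that of Scn11a, where it begins 59 bases before the start. No match says only that these letters are not in the window.

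Across the 8 arrays, 50.6% to 56.6% of the 59305 spots were well above background and none was saturated. The 75th percentile of the signal lay between 297 and 410 intensity units, and replicates correlated at 0.990 to 0.997. All 8 arrays sit on 1 slide read on 1 scan day, and each has 2 position indices on it. The first index was 1 for all arrays with IL-7 and 2 for all without, so position and IL-7 cannot be told apart. The second was 1 or 2 for scrambled and 3 or 4 for sponge arrays, so position and sponge cannot be told apart either. All 13 pre-B cell markers were well above background on all 8 arrays. Blnk, the gene of SLP-65, gave strong signal in every group, with group means of 7.16 to 8.22 log2 units above the 75th percentile of the array. Where its probe lies relative to the deletion is not known here, so Blnk does not check the genotype. Il7r, the IL-7 receptor gene, changed by 0.06 in scrambled and 0.04 in sponge cells on withdrawal and was not called. In bulk RNA, fewer cells of a type and less RNA per cell cannot be told apart.

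**Figure D1:**
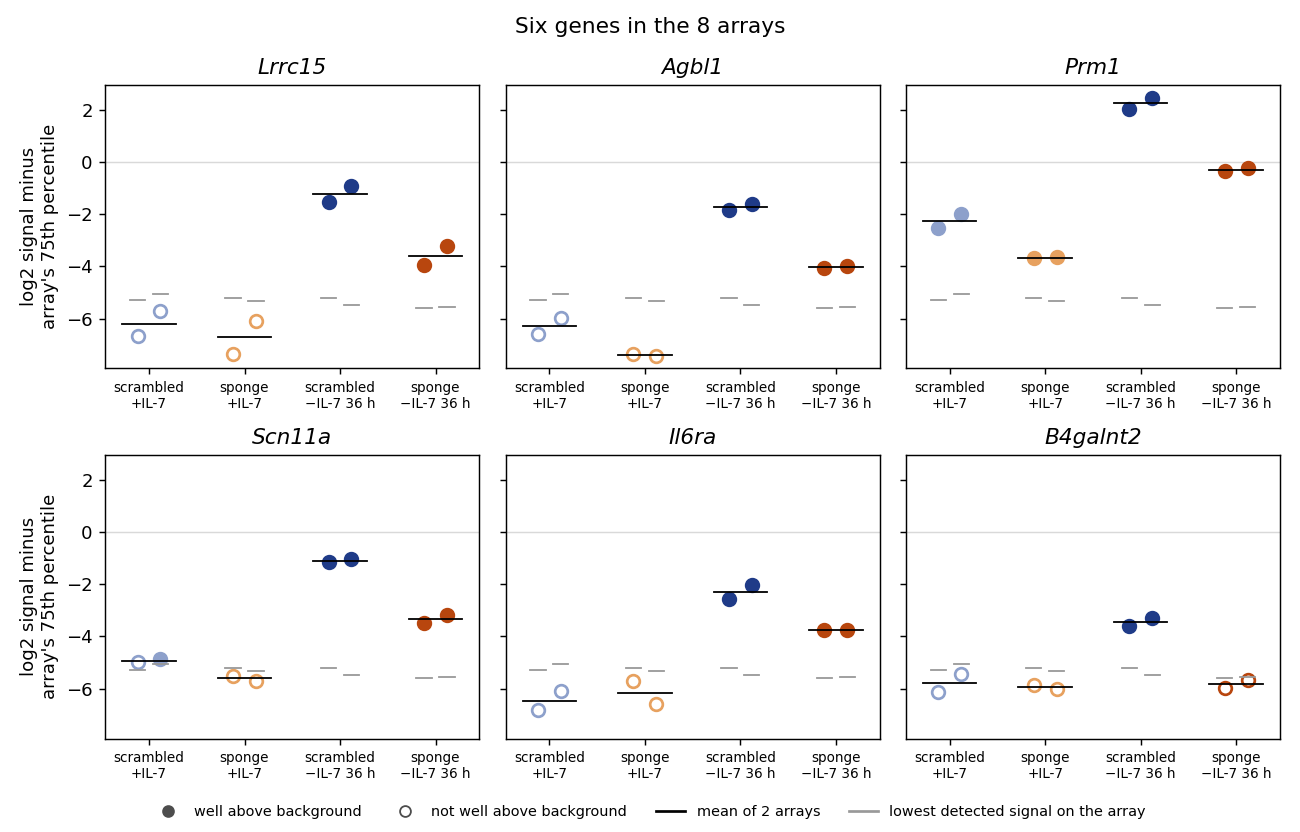
Signal of the 6 genes on each of the 8 arrays, as log2 of the processed signal minus the 75th percentile of the array; each point is 1 array, the black bar is the mean of 2 arrays, an open point is not well above background, and the short grey bar is the lowest signal well above background on that array. Both arrays of scrambled cells without IL-7 are the highest of the 8 for every gene, and B4galnt2 in sponge cells is open on all 4 arrays.

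In every one of the 6 genes, the 2 arrays of scrambled cells without IL-7 gave the highest signals of the 8. For 5 of them the 2 arrays of sponge cells without IL-7 came next, above all 4 arrays with IL-7, and the exception was B4galnt2. Values below are processed signals in intensity units, replicate 1 first, and changes are differences of log2 signal after scaling to the 75th percentile of the array, ± SE from the limma fit with n = 2 arrays a group. A gene not well above background on either array of a group has only a bound there: the fold is then "at least" the ratio of the brighter group to the dim group, with each dim array set to the higher of the lowest signal well above background on that array and the signal of the probe itself. As the background for these rises, limma called 48.1% of all genes on withdrawal in scrambled cells at an adjusted p under 0.05, 20.7% higher and 27.4% lower. Among the same genes it called 23.2% in sponge cells, 7.92% higher and 15.2% lower. Nothing is read from this for the 6 genes, since withdrawal chose them.

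Il6ra, the interleukin 6 receptor gene, is read by a probe at chr3:89674054-89674113 on the minus strand of mm9, the build in the array files for all probes. Its signal was 2.66 and 5.49 in scrambled cells with IL-7 and 58.4 and 90.1 without. In sponge cells it was 6.91 and 3.78 with IL-7 and 29.8 and 30.8 without. The 4 arrays with IL-7 were not well above background, and the 4 without IL-7 were, with both scrambled arrays above both sponge arrays. Without IL-7 the signal was at least 7.31-fold higher in scrambled cells and at least 2.89-fold higher in sponge cells. The log2 rises under normexp background correction were 0.96 and 0.30, below these bounds. Among cells without IL-7, sponge cells were lower by a log2 difference of -1.44 ± 0.36.

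The rest of the interleukin 6 family pathway was followed through a list of 31 genes, of which 26 were tested. In scrambled cells 15 rose and 3 fell on withdrawal, against 20.7% higher and 27.4% lower of all genes, with a median log2 change of 0.39 for the list and -0.02 for all genes. In sponge cells 7 rose and none fell at an adjusted p under 0.05 in limma, against 7.92% higher and 15.2% lower of all genes. Over this list and the 5 described below, 58 genes were called in scrambled cells, and 30 without replicate 2 of scrambled cells without IL-7. In sponge cells 17 were called, and 11 and 9 without replicate 1 or 2 of sponge cells with IL-7, and 8 without replicate 2 of sponge cells without IL-7. Il6st, the gp130 subunit that passes the receptor's signal on, rose in scrambled cells by a log2 value of 0.71 ± 0.07 (adjusted p = 0.000637, limma). In sponge cells its change was 0.12 ± 0.07 (adjusted p = 0.27, limma). Stat3, the main transcription factor of the pathway, rose by 0.40 ± 0.08 in scrambled cells (adjusted p = 0.00849, limma).

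The genes of this list that rose most were Bcl3, a nuclear partner of NF-kappaB, at a log2 change of 4.58 ± 0.23 in scrambled cells, and Socs1, an inhibitor of cytokine signalling, at 2.50 ± 0.13. Bcl3 was well above background on only 1 of 2 arrays in each group with IL-7. Junb, an AP-1 subunit, followed at 1.19 ± 0.37, and Il11ra1, the interleukin 11 receptor, at 1.12 ± 0.09. All 4 were called in scrambled cells, with limma adjusted p between 0.000234 and 0.0424. The ligand genes Il6, Lif and Ctf1 and the receptor genes Osmr and Cntfr had no probe that passed the filter.

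Scn11a, the sodium channel gene, is read at chr9:119662887-119662946 on the minus strand. Its signal was 9.4 and 12.9 in scrambled cells with IL-7, where only replicate 2 was well above background, and 156 and 182 without IL-7. In sponge cells it was 8.07 and 6.84 with IL-7, neither well above background, and 35.6 and 45.1 without. Scrambled cells without IL-7 were highest and sponge cells without IL-7 next, with no overlap, and the 4 arrays with IL-7 lay below both, at or near background. On withdrawal scrambled cells rose by a log2 value of 3.84 ± 0.14, a fold of 14.3, and sponge cells rose at least 3.83-fold. With normexp background correction the log2 rise in scrambled cells was 1.70 and that in sponge cells 0.43, below the bound given. Without IL-7 the sponge cells were lower by a log2 difference of -2.25 ± 0.14.

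Other subunits of voltage-gated sodium channels were seen too. Of 13 listed genes 8 were tested. In scrambled cells 4 rose and 2 fell on withdrawal, against 20.7% higher and 27.4% lower of all genes. In sponge cells 2 rose and none fell, against 7.92% higher and 15.2% lower of all genes. Of those that rose in scrambled cells, Scn2b, Scn3b and Scn4b encode beta subunits, which assist the channel pore. Scn2b gave 830 and 1250 with IL-7 and 3440 and 4390 without in scrambled cells, a log2 change of 1.84 ± 0.18 (adjusted p = 0.000661, limma). Both arrays without IL-7 were thus above both with IL-7, and in sponge cells Scn2b rose by 1.36 ± 0.18 (adjusted p = 0.00584, limma).

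Scn4a, the pore subunit of skeletal muscle, rose by a log2 value of 1.54 ± 0.12 in scrambled cells (adjusted p = 0.000393, limma), and Scn3b by 1.25 ± 0.30 (adjusted p = 0.017, limma). Scn10a and Scn9a, the other pore subunits best known from pain-sensing neurons, had no probe that passed the filter. Markers of sensory neurons were sparse: 1 to 3 of 10 listed genes were well above background on any array. The summed signal of that list, relative to the 75th percentile, was 1.45 to 2.43 with IL-7 and 4.18 to 4.52 without. P2rx3, an ATP-gated channel of sensory neurons, was the only one called of the 3 tested in it. Over all genes 48.1% were called in scrambled and 23.2% in sponge cells, so this count is not read as a result. The log2 change of P2rx3 was 1.13 ± 0.19 in scrambled cells and 1.41 ± 0.19 in sponge cells (adjusted p = 0.00509 and 0.00675, limma). The other tested markers were not called in either: Trpv1 changed by 0.03 ± 0.37 and -0.80 ± 0.37, and Avil by 0.62 ± 0.54 and 1.43 ± 0.54. The part of these transcripts in the Scn11a value was not tested.

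Lrrc15 is read at chr16:30269537-30269596 on the minus strand. Its signal was 2.89 and 7.15 in scrambled cells with IL-7 and 120 and 197 without. In sponge cells it was 2.24 and 5.25 with IL-7 and 25.9 and 43.8 without. All 4 arrays with IL-7 were not well above background and all 4 without IL-7 were, and the lower scrambled array without IL-7 was still above the higher sponge array. The rise was at least 15.5-fold in scrambled cells and at least 3.21-fold in sponge cells. Under normexp background correction the log2 rises were 1.68 and 0.42, below these bounds. Without IL-7 the sponge cells were lower by a log2 difference of -2.37 ± 0.55.

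Other membrane proteins with leucine-rich repeats moved both ways. Of 32 listed genes 15 were tested, and in scrambled cells 1 rose and 7 fell on withdrawal, with a median log2 change of -0.28, against 20.7% higher and 27.4% lower of all genes. In sponge cells 2 rose, Amigo1 and Amigo3, and none fell at an adjusted p under 0.05 in limma. The shares of all genes there were 7.92% higher and 15.2% lower. Amigo1, an adhesion molecule of neurons, was the one that rose in scrambled cells, by 0.92 ± 0.13 (adjusted p = 0.00233, limma). Gp9, a subunit of the platelet receptor for von Willebrand factor, fell by 2.35 (SE 0.47, adjusted p = 0.00885, limma), and Rtn4rl1, a relative of the Nogo receptor, fell by 1.06 (SE 0.25, adjusted p = 0.0163, limma). Rtn4r itself was counted among the 7 but was not well above background on both arrays of either group. Of 11 fibroblast markers 1 was well above background, Col1a2, on each of the 8 arrays, with a summed signal of 0.135 to 0.239, and its changes of -0.06 and -0.10 were not called. The other 10 fibroblast markers were not well above background on any array.

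B4galnt2 is read at chr11:95724942-95725001 on the minus strand and was detected in only 1 of the 4 groups. Its signal was 4.27 and 8.75 in scrambled cells with IL-7 and 29.1 and 37.8 without. In sponge cells it was 6.38 and 5.6 with IL-7 and 6.47 and 8.12 without. The 2 scrambled arrays without IL-7 were the only ones well above background, and the sponge arrays without IL-7 overlapped those with IL-7 of scrambled cells. The rise was at least 3.34-fold in scrambled cells, and no fold is given for sponge cells, which were below background in both conditions. Under normexp background correction the log2 rise in scrambled cells was 0.37, below this bound. Without IL-7 the signal was at least 4.43-fold higher in scrambled than in sponge cells.

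Other enzymes that finish glycan chains moved both ways. Of 24 listed sialyltransferases, galactosyltransferases and related enzymes 18 were tested. In scrambled cells 5 rose and 7 fell on withdrawal, against 20.7% higher and 27.4% lower of all genes. In sponge cells 4 fell and none rose at an adjusted p under 0.05 in limma, against 15.2% lower and 7.92% higher of all genes. St3gal5, which makes the ganglioside GM3, fell by 1.98 in scrambled cells (SE 0.27, adjusted p = 0.00219, limma). St3gal4, another sialyltransferase, fell by 1.496 (SE 0.12, adjusted p = 0.000425, limma) and B4galt4, a galactosyltransferase, fell by 1.43 (SE 0.10, adjusted p = 0.000324, limma). Cmah, which converts one sialic acid into another, rose by 1.60 ± 0.31 (adjusted p = 0.00843, limma). B4galnt1, a relative of B4galnt2, was tested and not called in either kind of cell, with changes of -0.10 ± 0.09 and -0.12 ± 0.09. B4galnt3 and B4galnt4 had no probe that passed the filter.

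Agbl1 is read by a probe at chr7:83734372-83734431 on the plus strand, whose letters, as the array files give them, are printed as an example of what the array measured.
Agbl1 probe: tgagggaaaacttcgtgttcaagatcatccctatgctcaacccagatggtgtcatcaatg
The signal of Agbl1 was 3.08 and 5.94 in scrambled cells with IL-7 and 98.3 and 122 without. Sponge cells gave 2.25 and 2.1 with IL-7 and 24 and 25.5 without. No array with IL-7 was well above background and all 4 without IL-7 were, with both scrambled arrays above both sponge arrays. The rise was at least 11-fold in scrambled and at least 2.36-fold in sponge cells, and without IL-7 the sponge cells were lower by a log2 difference of -2.32 ± 0.20. Normexp background correction gave log2 rises of 1.485 and 0.3363, below these bounds.

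The enzymes that add or remove glutamates on tubulin included none that rose. Of 15 listed genes 11 were tested, with a median log2 change of -0.75 in scrambled cells. There none rose and 8 fell in limma on withdrawal, against 20.7% higher and 27.4% lower of all genes. In sponge cells 2 fell and none rose, against 15.2% lower and 7.92% higher of all genes. Ttll11, a polyglutamylase, gave 1830 and 2390 with IL-7 and 927 and 872 without in scrambled cells, and it fell by 1.32 (SE 0.09, adjusted p = 0.000349, limma). The groups did not overlap. Ttll5, another polyglutamylase, fell by 0.94 (SE 0.09), Tpgs2, a subunit of the polyglutamylase complex, by 0.85 (SE 0.11) and Agtpbp1, the best known deglutamylase, fell by 0.82 (SE 0.08), with limma adjusted p of 0.00076, 0.0016 and 0.000637. Agbl3 and Agbl5, which belong to the same carboxypeptidase family, changed by -0.38 ± 0.14 and -0.16 ± 0.14 and were not called (adjusted p = 0.0639 and 0.36, limma). Agbl2 and Agbl4 had no probe that passed the filter.

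Prm1, the protamine gene, is read at chr16:10796450-10796509 on the minus strand and was the only one of the 6 well above background on all 8 arrays, so its level was detected in every group. Its signal was 51.5 and 94.5 in scrambled cells with IL-7 and 1420 and 2030 without. Sponge cells gave 28.4 and 28.5 with IL-7 and 315 and 349 without. The 4 groups did not overlap, and in both conditions the scrambled arrays lay above the sponge arrays. Withdrawal raised the log2 signal by 4.51 ± 0.21 in scrambled cells, a fold of 22.8, and by 3.38 ± 0.21 in sponge cells, a fold of 10.4. With normexp background correction and its offset of 50, the log2 rises were 3.51 and 1.94. Sponge cells were lower by a log2 difference of -1.41 ± 0.21 with IL-7 and -2.54 ± 0.21 without.

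The other genes that package DNA in the sperm head were not called or not measured. Prm2, the second protamine, gave 56 and 39.9 in scrambled cells with IL-7 and 39.1 and 40.7 without. The arrays overlapped, and the change was -0.34 ± 0.29 (adjusted p = 0.378, limma). Tnp1, a transition protein that precedes the protamines, changed by -0.03 ± 0.32 (adjusted p = 0.939, limma), and Prm3 and Tnp2, of the same kind, had no probe that passed the filter. Of 29 listed spermatid genes 28 were on the array and 14 were tested. In scrambled cells 3 rose and 3 fell on withdrawal, against 20.7% higher and 27.4% lower of all genes, so these counts are not read as a result. In sponge cells limma called none at an adjusted p under 0.05, against 23.2% of all genes.

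Among the 6 spermatid genes called in scrambled cells, Catsper2, a subunit of the sperm calcium channel, rose by 0.81 ± 0.11 (adjusted p = 0.00242, limma). Catsper4, of the same channel, was at least 1.91-fold higher without IL-7 (adjusted p = 0.0163, limma). Gapdhs, the sperm form of a glycolytic enzyme, fell by 1.24 (SE 0.23, adjusted p = 0.00651, limma). Smcp, a protein of the sperm mitochondrial capsule, gave 24.9 and 341 in scrambled cells with IL-7 and was not well above background on the other 6 arrays, a difference of at least 11.1-fold (adjusted p = 0.0194, limma). Most of the Smcp signal was thus on 1 array, replicate 2 of scrambled cells with IL-7. Over the 9 spermatid markers, 3 to 5 were well above background on an array, and their summed signal was 0.271 to 1.23 with IL-7 and 0.24 to 0.339 without. This sum leaves out Prm1 and was not higher on the arrays where Prm1 was high.

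**Figure D2:**
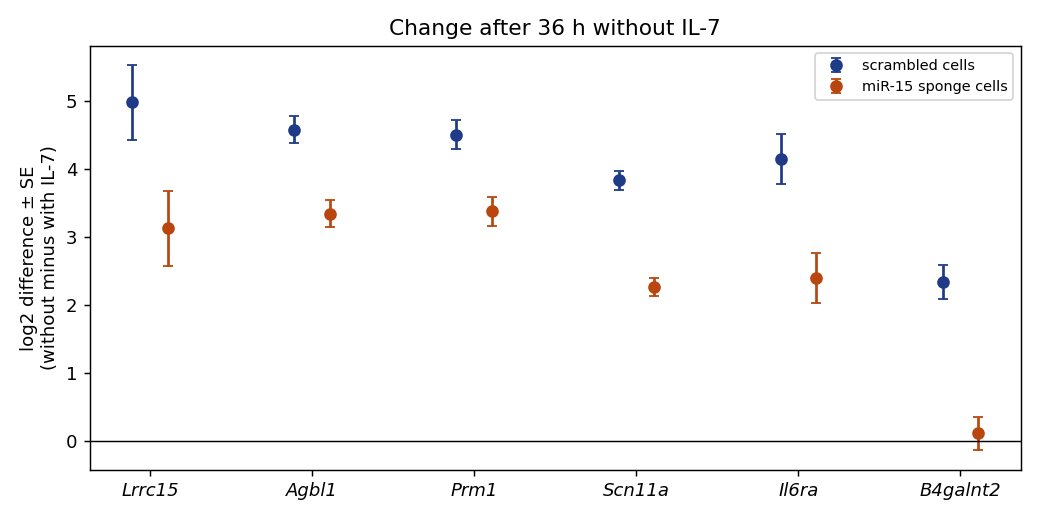
Change in log2 signal after 36 hours without IL-7 for the 6 genes, in scrambled cells (blue) and miR-15 sponge cells (orange); points are differences of the means of 2 arrays and bars are ± SE from the limma fit. The fitted rise is smaller in sponge cells for each gene; where the arrays with IL-7 were below background (Lrrc15, Agbl1, Il6ra and B4galnt2 in both kinds of cell, Scn11a in sponge cells) the fitted value depends on signal at background level and the bounds in the text apply.

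The rise was smaller in sponge than in scrambled cells for all 6 genes by the fitted values, and likewise for 96 of the 100 other genes with the largest rise in scrambled cells. Those 100 were picked by that same rise, which favours a smaller value in sponge cells, so nothing is read from their count. The difference of the log2 changes, sponge minus scrambled, was -1.13 ± 0.30 for Prm1, -1.23 ± 0.28 for Agbl1, -1.57 ± 0.19 for Scn11a, -1.85 ± 0.77 for Lrrc15 and -2.23 ± 0.35 for B4galnt2. For Il6ra it was -1.75 ± 0.52. Over all genes limma called 5.27% for this difference, 4.32% higher and 0.952% lower. The differences contain the withdrawal change that chose the genes, so no test is given and nothing is read from this background. Only for Prm1 were all 8 arrays behind this difference well above background.

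The average difference between sponge and scrambled cells over both conditions was tested for Prm1, the gene detected in all 4 groups. It takes the sum and not the difference of the conditions, so it is uncorrelated with the withdrawal estimates when the spread is equal. Prm1 was lower in sponge cells by a log2 value of -1.97 ± 0.15 (adjusted p = 0.00147, limma), and all 4 sponge arrays lay below the scrambled arrays of the same condition. Over all genes limma called 31.7% in this comparison, 14.7% lower and 17.0% higher. Of the 100 other genes with the largest rise in scrambled cells, 73 were lower in sponge cells on average and none higher at an adjusted p under 0.05 in limma, with a median log2 difference of -1.03. The lower level of Prm1 is therefore not read as particular to it, and slide position cannot be told apart from the sponge.

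For the other 5 genes the fitted averages ran from -1.71 ± 0.14 for Agbl1 to -0.57 ± 0.26 for Il6ra and are given with no test. These 5 passed the filter only where they were high, and for Lrrc15, Agbl1, Il6ra and B4galnt2 the arrays with IL-7 add only background signal to the average. B4galnt2 passed only through scrambled cells without IL-7, which fixes the direction of its difference. For these genes the comparison of sponge with scrambled cells rests on the arrays without IL-7, given above. The scrambled arrays in it also gave the rise by which the genes were chosen. That choice favours a lower value in sponge cells, so nothing is read from the direction of these differences. Of the 100 other raised genes 37 were likewise below background on all 4 arrays with IL-7, as were 472 of all genes tested.

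**Figure D3:**
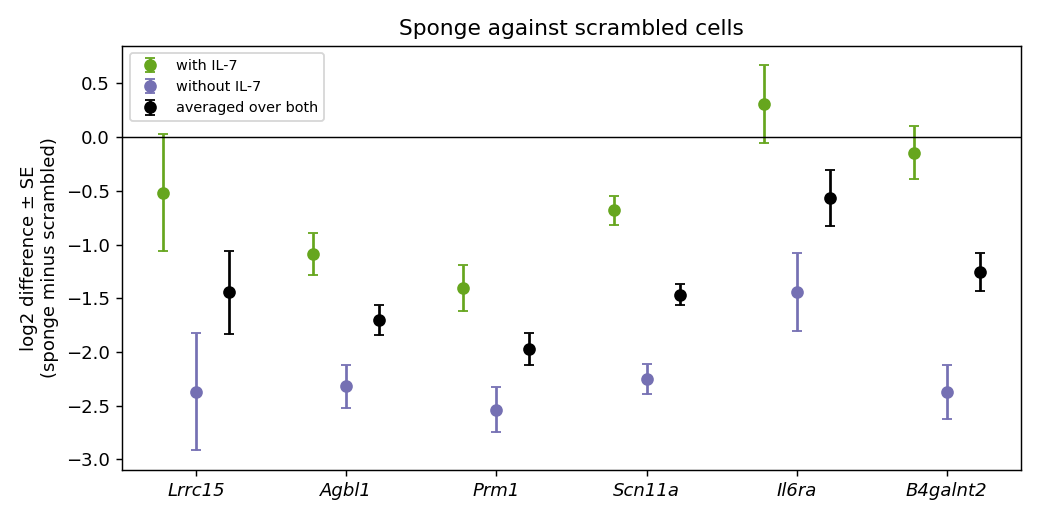
Difference in log2 signal between miR-15 sponge and scrambled cells for the 6 genes, with IL-7 (green), without IL-7 (purple) and averaged over both (black); points are differences of group means of 2 arrays and bars are ± SE from the limma fit. Without IL-7 all 6 genes are lower in sponge cells, a direction tied to how they were chosen. Over all genes limma called 32.1% in that comparison, 15.3% lower and 16.8% higher. With IL-7 only Prm1, at -1.41, was well above background in both kinds of cell.

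The 6 genes resembled each other to different degrees over the 8 arrays. Likeness was taken as the root mean square difference of log2 signals after centring each gene on its own mean, where 0 is an identical pattern. These are descriptions over the same 8 arrays, which share the withdrawal change that chose the genes. Agbl1 and Prm1 were the closest pair, 0.15 log2 units apart with r = 0.998. B4galnt2 was farthest from the others, at 0.945 to 1.47 log2 units and r between 0.797 and 0.884.

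The genes of closest pattern among all those tested are given next, 3 for each gene. Cd40, the receptor through which T cells help B cells, was closest to Prm1, at 0.151 log2 units, and second closest to Agbl1, at 0.226. Cd40 gave 53 and 82.3 in scrambled cells with IL-7 and 1150 and 1710 without, and in sponge cells 27 and 20.6 with IL-7 and 278 and 336 without. The order of its 4 groups was the order seen in Prm1. Bcl3 was closest to Agbl1, at 0.188 log2 units, and second to Prm1, at 0.292, and a lambda constant segment of the immunoglobulin light chain was the third for both, at 0.258 and 0.354.

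For Lrrc15 the 3 closest were immunoglobulin light chain segments, a kappa variable segment at 0.24 log2 units and 2 lambda constant segments at 0.247 and 0.333. The lambda constant segments are near-identical copies, and their probes may share signal. For Scn11a the closest were a lambda variable segment at 0.217 and a kappa variable segment at 0.288, then Kdm5b, a histone demethylase, at 0.3. For Il6ra they were the kappa constant segment at 0.361, then Cd74 at 0.412 and H2-DMb1 at 0.426, both of the MHC class II pathway. For B4galnt2 they were Cacna1e, a calcium channel subunit, at 0.25, 4930478P22Rik at 0.261 and Fgd2, an exchange factor for small GTPases, at 0.264. By Pearson's r other genes came first, such as Gbp9 for Prm1 at 0.999 and Hspa1a for Lrrc15 at 0.997, since r ignores the size of the change.

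**Figure D4:**
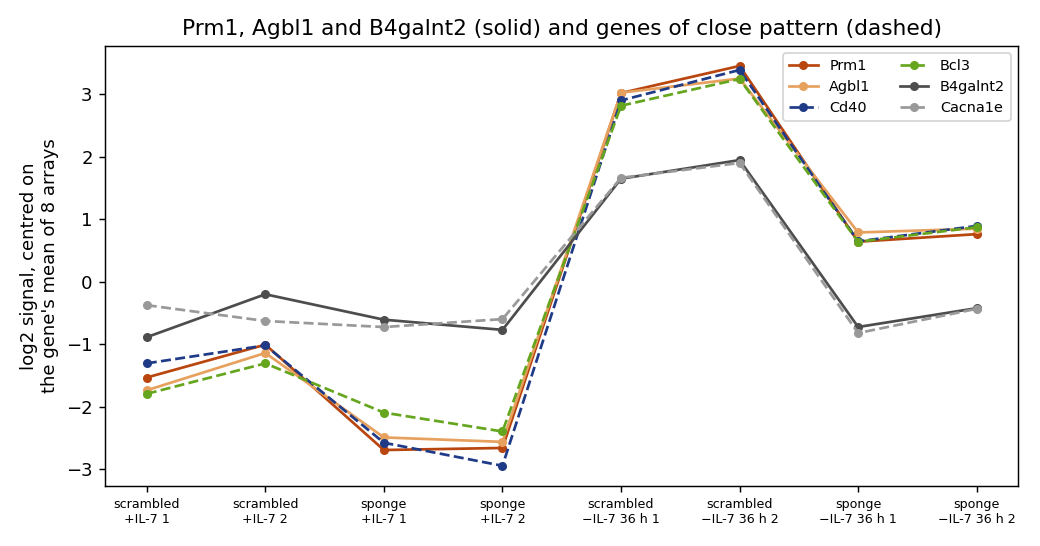
Log2 signal on each of the 8 arrays, centred on each gene's mean of the 8, for Prm1, Agbl1 and B4galnt2 (solid) and for Cd40, Bcl3 and Cacna1e (dashed), which were among the closest in pattern; lines join the arrays for legibility only. Cd40 runs within 0.151 log2 units (root mean square) of Prm1, Bcl3 within 0.188 of Agbl1 and Cacna1e within 0.25 of B4galnt2.

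Neighbouring genes on the chromosome were read from the probe positions in mm9. Within 250 kb of the 6 probes lie 46 other named genes, of which 33 were tested. In scrambled cells 8 rose and 8 fell on withdrawal, and in sponge cells 4 rose and 3 fell, in limma at an adjusted p under 0.05. Over all genes 20.7% rose and 27.4% fell in scrambled cells, and 7.92% and 15.2% in sponge cells, so the neighbours' counts are not read as a result. Of the 7 calls in sponge cells, 1 was left without replicate 2 of sponge cells without IL-7, and 4 without any one of the other 3 sponge arrays. Only Socs1, of the 33, rose by more than 1 log2 unit and was called. It lies next to the protamine cluster, with its probe 12.5 kb from that of Prm1. Socs1 gave 306 and 461 in scrambled cells with IL-7 and 2010 and 2570 without, and in sponge cells 315 and 331 with IL-7 and 1060 and 999 without. As for Prm1, both scrambled arrays without IL-7 were highest and both sponge arrays without IL-7 next, but with IL-7 the 2 kinds of cell overlapped. Socs1 rose by 1.51 ± 0.13 in sponge cells (adjusted p = 0.00281, limma).

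Between Prm1 and Socs1 lies Prm2, 4.9 kb from the Prm1 probe, which was not called as given above. On the other side Rmi2, a subunit of the complex that resolves DNA crossovers, lies 43.5 kb away and fell by 1.83 in scrambled cells (SE 0.13, adjusted p = 0.000365, limma). In sponge cells its change was -0.46 ± 0.13 (adjusted p = 0.0602, limma). Clec16a, 51.7 kb away, changed by 0.13 ± 0.08 and was not called (adjusted p = 0.204, limma). Litaf, 163 kb away, rose by 0.72 ± 0.11 in scrambled cells (adjusted p = 0.00382, limma).

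Near the other 5 genes the largest called rise was that of 1700094D03Rik, near Il6ra, at 0.995 ± 0.109 in scrambled cells (adjusted p = 0.00101, limma). For Agbl1 no other named gene has a probe within 250 kb. Lrrc15 has 3 tested neighbours, of which Hes1, a Notch target, fell by 0.88 in scrambled cells (SE 0.11, adjusted p = 0.00176, limma), while Gp5 and Atp13a3 were not called. Of the 4 near Scn11a, Gorasp1 rose by 0.53 ± 0.10 and Csrnp1 by 0.71 ± 0.08 in scrambled cells (adjusted p = 0.00824 and 0.00122, limma), and Wdr48 and Ttc21a were not called. Of the 4 nearest to Il6ra only Ube2q1 was called, at 0.26 ± 0.08 (adjusted p = 0.0347, limma), and Atp8b2, Chrnb2 and Adar were not. Of the 4 nearest to B4galnt2, 4833417C18Rik fell by 0.86 (SE 0.19) and Gngt2 fell by 0.34 (SE 0.08), with limma adjusted p of 0.0134 and 0.0158, and Abi3 and Phospho1 were not called.

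**Figure D5:**
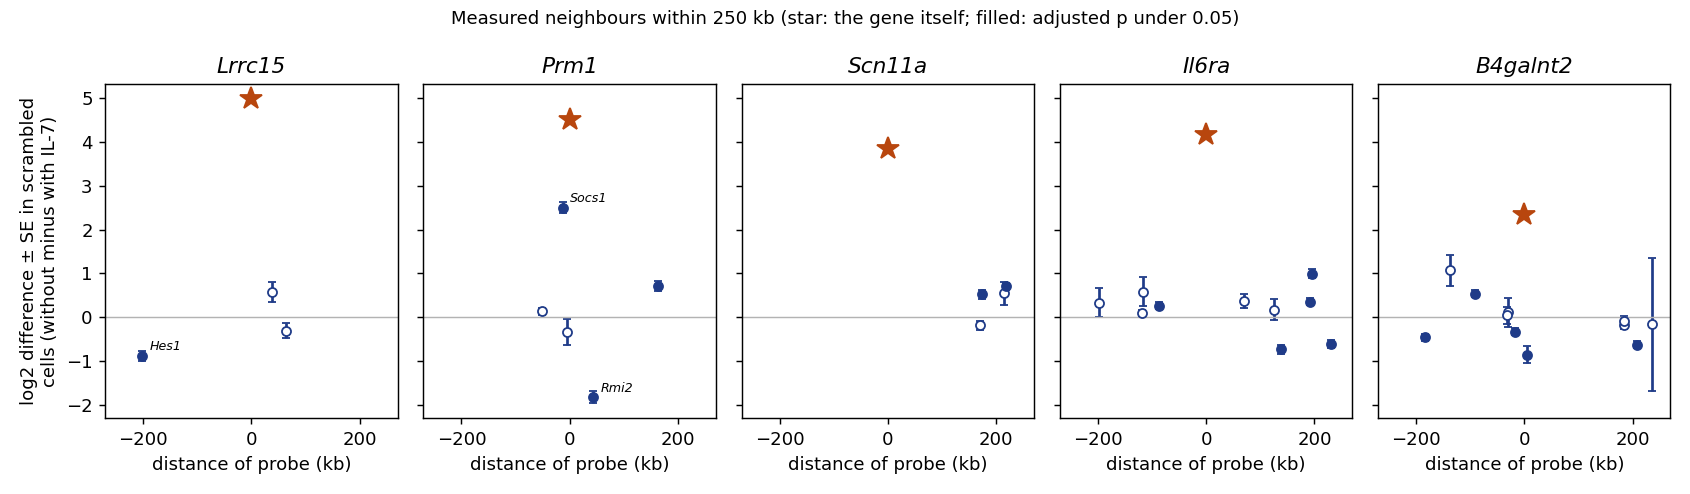
Change in log2 signal on IL-7 withdrawal in scrambled cells for the tested genes within 250 kb of 5 of the 6 genes, against the distance between probes in kb; bars are ± SE from the limma fit, filled points have an adjusted p under 0.05, and stars mark the gene itself, as fitted. Agbl1 has no neighbour in this range; Socs1, at 2.50, is the highest neighbour and lies 12.5 kb from Prm1.

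Markers of other cell types were summed on each array, relative to the 75th percentile. The sum of 10 myeloid markers, of which 6 to 7 were well above background on an array, was 23.3 and 18.3 in scrambled cells with IL-7 and 31.1 and 30.8 without. In sponge cells the sum was 19.4 and 15.2 with IL-7 and 19.7 and 20.6 without, so in both kinds of cell the arrays without IL-7 lay above those with IL-7. Of 7 myeloid markers tested, 2 rose and 1 fell in scrambled cells, against 20.7% higher and 27.4% lower of all genes. Fcgr3, an Fc receptor, rose by 0.88 ± 0.09 and Itgam by 0.61 ± 0.19 (adjusted p = 0.000702 and 0.0422, limma). Lyz2, the macrophage lysozyme, fell by 1.17 (SE 0.35, adjusted p = 0.0374, limma). Lyz2 was well above background on 2 arrays with IL-7 and on none without, so its fitted fall depends on signal at background level. The sum of 8 T cell markers, of which 3 to 4 were well above background, was 17.6 and 17 in scrambled cells with IL-7 and 19.7 and 19.4 without, again with no overlap, and 13.6 to 14.1 in sponge cells. Of 8 epithelial markers 1 to 3 were well above background, with a sum of 0.269 to 0.537 that overlapped between conditions. The part of such transcripts in the values of the 6 genes was not tested.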

How the data were processed

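RNA of the 8 samples was hybridised to one-colour Agilent arrays, and the deposited scanner files hold processed signal intensity per spot, made with Agilent Feature Extraction (10.7.3.1 per the file headers, 10.7.1.1 per the submitters' processing notes). Here, log2 signal was scaled to the 75th percentile of each array. Probes well above background on every array of at least 1 group were kept (30963 of 55681). Symbols were updated through the RefSeq table, and 1 probe represents each gene. One limma fit (3.58.1, R 4.3.3) of 4 group means over 21320 genes gave Benjamini-Hochberg adjusted p-values, called under 0.05. It was tested on simulated data. The deposited value table, put on a log2 scale here, quantile normalization, normexp background (offset 50), no filter, a replicate block and leaving out arrays were alternatives. Same-numbered arrays deviated together at r = 0.0177 to 0.131, so numbers were not taken as pairs.

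The 6 genes and all lists were chosen with earlier results of these data known. The 100 strongly raised genes were added after seeing the data. Besides the 6, named genes are the 4 called genes of largest change per list, the 4 nearest tested neighbours, the 3 of closest pattern, Blnk and Il7r. Others, such as list members of the same family, untested genes and single markers, were named after their values were seen. One list gene is not reported here.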

Additional observations from a re-analysis of the deposited data

Results flagged for a closer look

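For 9 genes named in the pathway lists or as neighbours, limma called the difference between the withdrawal changes, sponge minus scrambled, at an adjusted p under 0.05, where 5.27% of all genes were called. By set they were 3 of 26 tested interleukin 6 family genes, 1 of 14 spermatid, 2 of 18 glycosyltransferase and 1 of 15 leucine-rich repeat genes. None of 8 sodium channel or 11 tubulin genes was called, and of 33 neighbours 2 were higher and 1 lower. Socs1 counts both as a list gene and as a neighbour. These counts are not read as a result. Among interleukin 6 family genes, Il6st differed by -0.592 (adjusted p = 0.034), Il11ra1 by -0.716 (0.0364) and Socs1, also the neighbour of Prm1, by -0.99 (0.043), so each rose less in sponge cells. Rmi2, on the other side of Prm1, differed by 1.367 (0.0306) and Hes1, near Lrrc15, by 0.979 (0.0345), both falling in scrambled cells and not called in sponge cells. The glycosyltransferase genes St3gal4 and B4galt4 differed by 0.871 (0.0458) and 0.786 (0.0393), with a smaller fall in sponge cells. Gapdhs, a spermatid gene, differed by 1.624 (0.0494), and Amigo3, with leucine-rich repeats, by 0.563 (0.042).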

How the results depend on the processing

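The direction of the fitted values of the 6 genes was kept under every alternative run, except for B4galnt2 in sponge cells, below background throughout, which was -0.1391 under normexp background and -0.03555 without replicate 2 of sponge cells without IL-7. Under normexp with its offset, the log2 rises in scrambled cells were 1.681 for Lrrc15, 1.485 for Agbl1, 3.507 for Prm1, 1.704 for Scn11a, 0.9586 for Il6ra and 0.3663 for B4galnt2, and in sponge cells 0.416, 0.3363, 1.944, 0.4326 and 0.2991 for the first 5. Signal near background limits all these folds, that of Prm1 in sponge cells included. The average sponge difference, from which nothing is read for the 5 genes other than Prm1, was -0.4082 for Il6ra there, against -0.5663 in the fit as described. That of Lrrc15 was -1.291 after quantile normalization and -1.291 from the submitters' own deposited values. It was -1.444 with no filter, with the replicate block and in the fit as described. For Lrrc15 replicate 2 was above replicate 1 in every group. The SE of its rise in scrambled cells was 0.166 with the block and 0.547 in the fit as described. No test is given for either gene.

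Genes called lower on withdrawal in sponge cells numbered 1961 under quantile normalization, 1956 in the deposited table and 1756 with no filter, against 3250, and those called higher 888 with no filter, against 1689. Of the called genes, 43.1% were higher in scrambled and 34.2% in sponge cells, and 51.5% and 51.6% under quantile normalization. Called neighbours in sponge cells fell to 2 with no filter. Windows of 100 kb and 500 kb hold 13 and 77 tested neighbours. They gave 6 and 46 called in scrambled cells, against 48.1% of all genes. In sponge cells they gave 1 and 20, against 23.2% of all genes, and these counts are not read as a result. The replicate block kept the average sponge difference of Prm1 called (adjusted p = 0.00299, limma). It gave 4512 genes higher and 5778 lower in scrambled cells, 17 called neighbours there (16 without it), 19 called list genes in sponge cells (17 without it) and -1.972 ± 0.105 for the average sponge difference of Prm1.

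Leaving out 1 array at a time, genes called higher in scrambled cells numbered 2582 (without replicate 2 of scrambled cells without IL-7) to 4580, and lower 4188 to 5776. In sponge cells they numbered 552 to 1835 higher and 1125 to 3306 lower. List genes called numbered 30 to 54 in scrambled and 8 to 20 in sponge cells, neighbours 13 to 16 and 1 to 7. The average sponge difference was called for 4151 to 7925 genes, the lowest without replicate 2 of scrambled cells without IL-7. For Lrrc15 it was -1.757 to -1.131, for Agbl1 -1.854 to -1.556, for Prm1 -2.104 to -1.84, for Scn11a -1.545 to -1.389, for Il6ra -0.7785 to -0.3541 and for B4galnt2 -1.431 to -1.087. The rises in scrambled cells were 4.503 to 5.463 for Lrrc15, 4.28 to 4.877 for Agbl1, 4.245 to 4.772 for Prm1, 3.768 to 3.91 for Scn11a, 3.801 to 4.495 for Il6ra and 1.999 to 2.686 for B4galnt2. In sponge cells they were 2.504 to 3.757, 3.311 to 3.383, 3.319 to 3.439, 2.113 to 2.425, 1.979 to 2.828 and -0.03555 to 0.265 in the same order.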
